A study of Homo sapiens with 5 samples.

Results

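Clone 2 and replicate 1 of clone 6 were compared with unedited cells of the human astroglial line SVG-10B1, which is an established line. The edited libraries carry the R132H substitution in 1 allele of IDH1 (genotype R132H/WT). The unedited libraries are wild type, with clone number 1 in the labels. All libraries share the line and its culture in DMEM with fetal calf serum, and no other treatment is labelled. Of the 5 libraries in the series, 4 entered the comparison: wild-type replicates 1 and 2, clone 2 replicate 1 and clone 6 replicate 1. Both edited libraries were chosen on measured values, because their gene levels are nearly the same and because clone 6 replicate 2 has high levels of stress genes. That library was therefore left out, and its values are given only beside the others. A gene was tested if it reached 1 CPM (its count scaled by the reads assigned to genes in that library, with TMM-scaled library sizes) in 2 of the 4 libraries, which 13965 of 57905 genes with counts did. Every edited library comes from 1 of 2 clones, and the labels do not say whether the wild type is itself a subclone. The edit and the history of a clone therefore cannot be told apart.

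IDH1 is the cytosolic and peroxisomal isocitrate dehydrogenase, which makes 2-oxoglutarate and NADPH. The R132H enzyme instead reduces 2-oxoglutarate to D-2-hydroxyglutarate, which competes with 2-oxoglutarate in dioxygenases that demethylate histones and DNA, hydroxylate collagen and mark HIF for degradation. The substitution is best known from diffuse gliomas, where it accompanies widespread methylation of CpG islands.

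Reads assigned to genes ranged from 13572114 to 21881726 per library, and 3 reads, the upper limit that a count of 0 allows, were 0.141 to 0.226 CPM. Ribosomal RNA took between 0.417% (clone 2) and 9.79% (clone 6 replicate 1) of reads. Of the defining astrocyte markers, AQP4 and GJB6 had 0 reads in the 4 libraries, S100B had at most 0.0637 CPM and GFAP 0.382 to 0.604 CPM, whereas VIM, which many cultured cells also express, was at 591 to 668 CPM. IDH1 itself was at 120.95 and 117 CPM in wild type and at 109 and 103 CPM in clone 2 and clone 6 replicate 1. Its log2 fold change of -0.15 (SE 0.10) did not pass the test (edgeR quasi-likelihood, adjusted p = 0.337). It passed when 1 wild-type library was left out and the spread came from the edited pair alone (edgeR adjusted p = 0.0292 without replicate 1 and 0.00806 without replicate 2). Gene counts do not separate the alleles.

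The edited libraries resembled each other more than any other pair. Over 8844 genes with at least 10 CPM in all 5 libraries, the median absolute log2 ratio was 0.064 between clone 2 and clone 6 replicate 1, and 6 genes differed by 2-fold or more. The wild-type replicates had a median of 0.098 with 20 such genes. Between the replicates of clone 6 itself the median was 0.226 with 208 such genes, so clone 6 replicate 1 lay nearer to the other clone than to its own replicate. These values chose the libraries and carry no test. As a description, the counts of the edited pair still differed more than counting alone would give. With ribosomal RNA genes left aside, 1.71% of 14557 genes had a chi-square p below 0.001. By counting alone 0.1% would, and in the wild-type pair 12.8% did. The smaller share in the edited pair follows from its choice, and the wild-type libraries also hold more reads. The largest differences within the edited pair were in ribosomal RNA, which that share does not include. RNA28S5 was at 3029 CPM in clone 2 and 78832 CPM in clone 6 replicate 1, and MT-RNR2 at 763 and 18169 CPM. Among 9537 genes with at least 10 CPM in either, 9 differed by 1.5-fold or more. The edited pair may therefore not be independent samples.

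**Figure D1:**
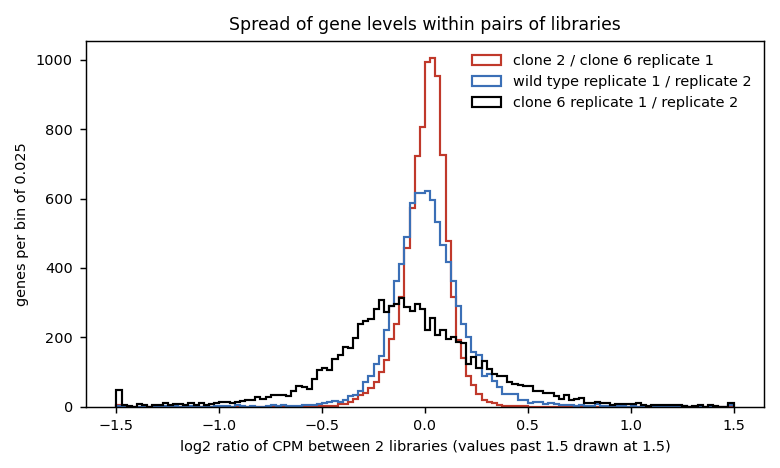
Histogram of log2 ratios of CPM between 2 libraries (x axis) against the number of genes per bin of 0.025 (y axis), over the 8844 genes with at least 10 CPM in all 5 libraries. The ratios of clone 2 to clone 6 replicate 1 form the narrowest peak (median absolute ratio 0.064), those of the wild-type pair a wider one (0.098) and those of the clone 6 replicates the widest (0.226).

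For that reason the counts of both edited libraries were summed and tested as 1 sample against the 2 wild-type libraries, so that the spread came from wild type alone. The labels do not state that replicates were grown separately, and the p-values cover only how far these samples differ, and that spread may be technical. With edgeR's quasi-likelihood test and a Benjamini-Hochberg adjusted p below 0.05, called a change from here on, 3603 of 13965 genes (25.8%) changed, 1599 higher (11.5%) and 2004 lower (14.4%) in the edited pair. Changes of at least 2-fold numbered 567 higher (4.06%) and 742 lower (5.31%). By fitted values falls reached further than rises: 321 genes fell and 143 rose at least 4-fold, and 103 fell and 14 rose at least 16-fold. For genes with 0 reads in 1 group the fitted value depends on the prior count. Some of these, such as NRXN3 (fitted log2 fold change -7.98), are counted at 16-fold although the bound given further on is smaller. Both edited values lay on 1 side of both wild-type values for 10116 genes (72.4%), so separation of the groups alone says little here. At the edge of the filter, TSPAN1 was just inside with a second-highest value of 1.02 CPM and TFAP2E just outside with 0.991 CPM. Adding clone 6 replicate 2 as a separate edited sample left 1440 genes called, and DESeq2 called 1911.

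**Figure D2:**
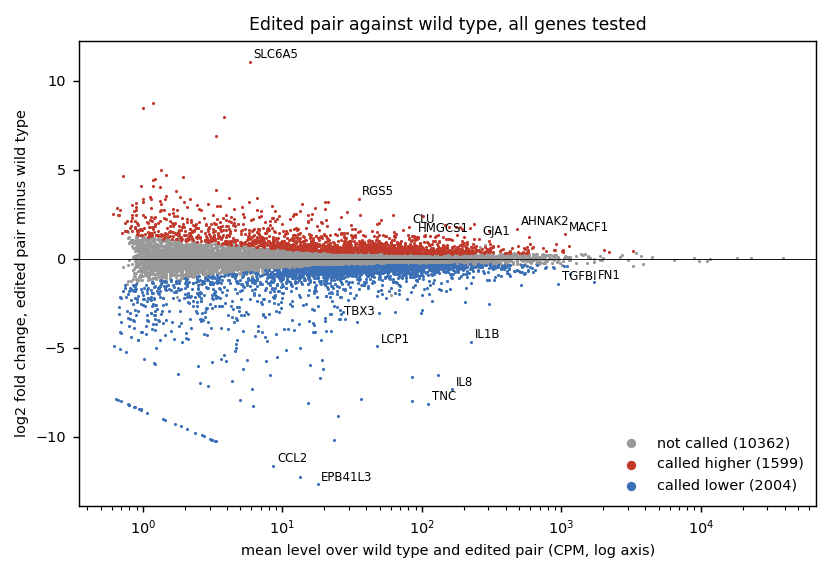
Each point is 1 of the 13965 genes tested, with its mean level in CPM on a log axis (x) and the log2 fold change of the edited pair over wild type (y). Red points are the 1599 genes called higher, blue points the 2004 called lower and grey points the rest; the line of points at the lower left holds genes without reads in the edited pair, whose fitted values depend on the prior count.

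Several genes had reads in 1 group only. Of the genes with at least 5 CPM in both wild-type libraries, 6 had 0 reads in both edited libraries, namely EPB41L3, CHRDL1, CCL2, MMP16, RP11-834C11.4 and NLRP3. SLC6A5 was the 1 gene with the opposite pattern. The promoters of the most abundant of these, 250 bases before to 50 after the start, are shown from RefSeq (GRCh38.p14), with each CG, the target of DNA methylation, in capitals. EPB41L3 lies at chr18:5628942-5629241 on the minus strand with 30 CG, CHRDL1 at chrX:110795768-110796067 on the minus strand with 36 CG, and SLC6A5 at chr11:20599358-20599657 on the plus strand with 9 CG.
EPB41L3: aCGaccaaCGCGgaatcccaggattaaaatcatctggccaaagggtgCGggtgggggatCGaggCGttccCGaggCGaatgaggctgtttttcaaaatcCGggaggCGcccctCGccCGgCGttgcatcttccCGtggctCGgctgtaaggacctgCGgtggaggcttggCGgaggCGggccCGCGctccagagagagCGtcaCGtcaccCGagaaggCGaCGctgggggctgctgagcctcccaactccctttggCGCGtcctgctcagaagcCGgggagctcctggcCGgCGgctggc
CHRDL1: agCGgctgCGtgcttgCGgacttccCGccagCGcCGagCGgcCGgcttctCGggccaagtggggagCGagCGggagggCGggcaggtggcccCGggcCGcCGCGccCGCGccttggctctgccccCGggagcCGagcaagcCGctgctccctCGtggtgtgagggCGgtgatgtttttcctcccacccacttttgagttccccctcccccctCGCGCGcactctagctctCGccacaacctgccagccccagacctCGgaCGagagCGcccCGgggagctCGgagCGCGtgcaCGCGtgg
SLC6A5: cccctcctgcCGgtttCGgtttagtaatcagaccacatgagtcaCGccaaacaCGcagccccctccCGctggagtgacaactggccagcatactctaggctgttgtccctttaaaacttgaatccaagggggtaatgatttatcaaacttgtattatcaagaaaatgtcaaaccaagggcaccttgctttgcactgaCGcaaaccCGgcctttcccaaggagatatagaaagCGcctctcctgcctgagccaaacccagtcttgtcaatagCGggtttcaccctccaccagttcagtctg
Methylation was not measured in these libraries. The median promoter of 9301 tested genes held 27 CG, so the 2 promoters shown, of the 6 lost genes, were above it and that of SLC6A5 below it. They do not stand for the falls at large: the 119 genes that fell at least 8-fold by fitted value had a median of 16 CG.

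EPB41L3, a band 4.1 protein that links membrane proteins to the cytoskeleton, was at 43.2 and 28.3 CPM in wild type and had 0 reads in both edited libraries, at least 171-fold lower (floor of 3 reads per library, adjusted p = 9.08e-07). CHRDL1, a secreted antagonist of bone morphogenetic proteins, was at 24.1 and 29.3 CPM in wild type with 0 edited reads, at least 128-fold lower (adjusted p = 2.69e-07). CCL2, the monocyte chemokine, went from 17.7 and 16.7 CPM to 0 reads, at least 82.4-fold lower. These genes also had 0 reads in clone 6 replicate 2. MMP16, a membrane-bound metalloproteinase, was at 6.70 and 6.49 CPM in wild type and at least 31.6-fold lower. NLRP3, the inflammasome sensor, was at 5.34 and 5.67 CPM and at least 26.4-fold lower. SERPINB2, an inhibitor of plasminogen activators, differed between the wild-type replicates (4.27 and 9.19 CPM) and was at least 32.2-fold lower, and PTGES, a prostaglandin E synthase, was at 9.47 and 2.97 CPM and at least 29.8-fold lower.

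Other large falls left a few reads. CSF3, the granulocyte growth factor, was at 63.6 and 30.5 CPM in wild type and had 1 read in the edited pair, a ratio of 1400 (exact 95% interval 251 to 55329, counting error only). PDE1C, a calmodulin-dependent phosphodiesterase, was at 42.2 and 58.0 CPM in wild type and at 3 reads in the pair (ratio 477, interval 163 to 2317). HCLS1, a cortactin-like protein of blood cells, was at 12.5 and 12.2 CPM and at 1 read (ratio 358, interval 63.9 to 14158). IL7R, the interleukin-7 receptor, was at 28.4 and 32.4 CPM and at 3 reads (ratio 292, interval 99.7 to 1418). All wild-type values of these genes stood far above both edited values, and the ranking that names them took only genes without overlap between the groups.

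On the rising side, the glycine transporter gene SLC6A5 was without a read in wild type (0 in both libraries) and at 11.3 and 12.2 CPM in clone 2 and clone 6 replicate 1, at least 76.6-fold higher (adjusted p = 2.93e-06); clone 6 replicate 2 held 11.5 CPM. RGS5, a regulator of G protein signalling typical of pericytes, was at 6.66 and 5.83 CPM in wild type and 64.2 and 64.0 CPM in the edited pair (log2 fold change 3.38, SE 0.14, adjusted p = 2.16e-07). SLAMF7, a lymphocyte surface receptor, went from 3.84 and 4.62 to 39.8 and 36.0 CPM (log2 fold change 3.19, SE 0.17), and CPA3, a mast cell carboxypeptidase, from 2.72 and 3.30 to 26.0 and 23.5 CPM (3.07, SE 0.20). The edited and wild-type values of all 4 were well apart, which the same ranking in part required. Among the other large rises were LRRC8B (3.41), FAM212B (3.19), TBC1D30 (3.18), DMRTA1 (2.97), ATRNL1 (2.88), SLC2A12 (2.82) and BOC (2.72), each value being a log2 fold change. Among them, SLC2A12 encodes a glucose transporter and BOC a Hedgehog co-receptor.

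**Figure D3:**
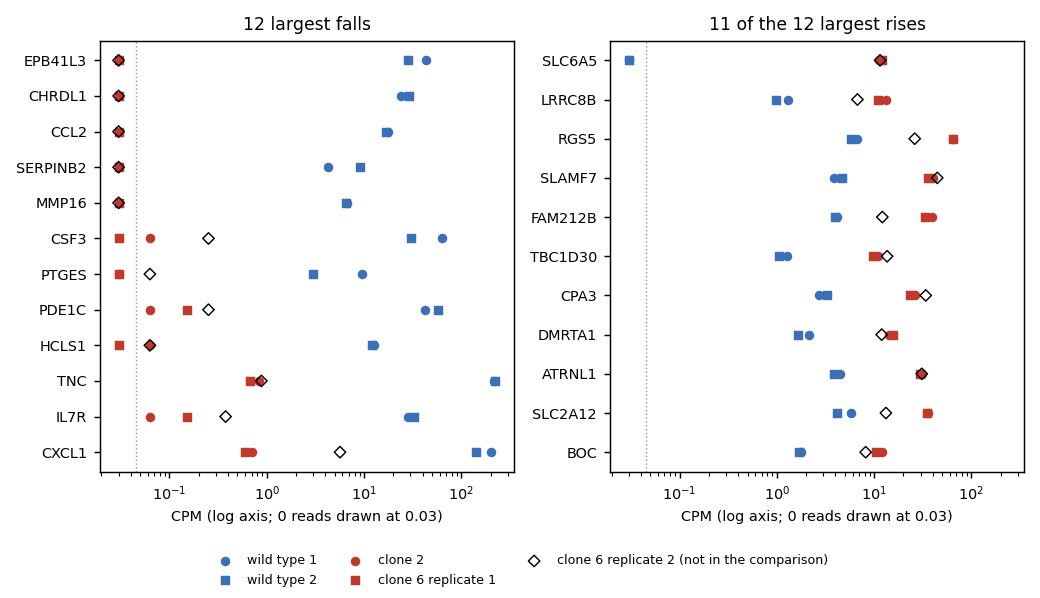
CPM on a log axis (x) of the 12 largest falls and 11 of the 12 largest rises (y), 1 symbol per library, with 0 reads drawn at 0.03 left of the dotted line. Blue symbols are wild type, red symbols the edited pair and open diamonds clone 6 replicate 2. The red symbols lie beside or on top of each other and away from both blue ones in every row. This follows from the choice of an alike pair and of genes without overlap between the groups.

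Abundant transcripts moved as well. FN1, fibronectin, fell from 2676 and 2285 CPM to 990 and 964 CPM (log2 fold change -1.32, SE 0.14, adjusted p = 0.000106). TGFBI, a matrix protein induced by TGF-beta, fell from 1410 and 1356 to 512 and 523 CPM. COL5A2, COL7A1 and COL4A1, collagen chains, differed by -672.5, -488.6 and -326.4 CPM. IL1B fell from 468 and 394 to 18.3 and 15.6 CPM, and IL8 from 329 and 324 to 2.42 and 1.51 CPM. Clone 6 replicate 2 held 86.4 CPM of IL1B and 35.2 CPM of IL8, and adding it moved their log2 fold changes from -4.64 to -3.09 (edgeR adjusted p = 0.054) and from -7.33 to -4.19 (0.0789), so that neither was called. COL4A1 also lost its call in that fit (0.0618). In the other direction, MACF1, a linker of microtubules and actin, rose from 610 and 590 to 1528 and 1550 CPM (log2 fold change 1.38, SE 0.11, adjusted p = 1.12e-05). AHNAK2, a giant scaffold protein, rose from 228 and 232 to 729 and 732 CPM. The ribosomal protein gene RPL5 rose from 865 and 879 to 1441 and 1369 CPM. ENO1 (0.44), FTL (0.48) and NPM1 (0.39) rose by smaller log2 amounts, and NPM1 lost its call without clone 2 (edgeR adjusted p = 0.0648). All 3 lost it with clone 6 replicate 2 added (0.0674, 0.066 and 0.0804). RN7SL3, FTL, NPM1 and ENO1 have near-identical copies in the genome, and the counting could split or share their reads.

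Secreted ligands were among the groups with most falls. Of 21 tested cytokine and chemokine genes, 15 fell and 1 rose (median log2 fold change -4.21, the same with genes without reads at their bound). CXCL1, a neutrophil chemokine, fell from 199 and 141 CPM to 0.700 and 0.604 CPM (log2 fold change -7.99, SE 0.30, adjusted p = 1.31e-07). CSF2, the granulocyte-macrophage growth factor, was at 6.38 and 3.03 CPM in wild type with 0 reads in the edited pair, at least 22.5-fold lower. Adding clone 6 replicate 2 moved the fitted log2 fold change of CXCL1 to -5.92 and that of CSF2 from -9.75 to -4.78. Both were still called (edgeR adjusted p = 0.017 and 0.0414). IL6 was at 34.8 and 58.2 CPM in wild type, 4.39 and 4.45 CPM in the edited pair and 67.0 CPM in clone 6 replicate 2, and IL1A at 44.6 and 35.4, at 4.46 and 4.98 and at 49.7 CPM. For IL6 and IL1A the library left out thus lay above both wild-type values, and with it added neither was called (edgeR adjusted p = 0.823 and 0.705). TNFRSF11B, the decoy receptor for RANK ligand, was the member that rose, from 1.55 and 1.05 to 2.55 and 3.32 CPM, a call that DESeq2 (adjusted p = 0.397) and the fit with clone 6 replicate 2 (0.626) did not make. With clone 6 replicate 2 added, 9 members fell.

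Growth factors and morphogens split, with 19 of 45 lower and 10 higher. SLIT2, a secreted guidance cue, fell from 38.2 and 35.1 to 1.97 and 0.981 CPM (log2 fold change -4.57, SE 0.20), SLIT3 from 4.41 and 3.36 to 0.191 and 0.151 CPM, and MDK, the heparin-binding factor midkine, from 39.4 and 34.3 to 3.63 and 2.79 CPM. WNT5A, SEMA3C and VEGFC fell too, with log2 fold changes of -2.25, -2.36 and -1.80. Among those that rose, GDF6 went from 9.38 and 12.7 to 59.5 and 63.1 CPM and BMP4, another bone morphogenetic ligand, from 7.78 and 9.85 to 45.0 and 43.0 CPM. BMP4 was at 10.1 CPM in clone 6 replicate 2, near wild type, and WNT7B, at 0.469 and 1.10 against 6.11 and 5.96 CPM, was there at 1.70 CPM. FGF5 rose from 50.9 and 62.8 to 129 and 133 CPM and was at 143 CPM in that library. Adding it left 13 members lower and 4 higher, and BMP4 (edgeR adjusted p = 0.175) and WNT7B (0.105) were not called.

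Of 32 receptor tyrosine kinase genes, 11 fell and 5 rose. TIE1, an endothelial receptor, fell from 19.6 and 18.9 to 1.27 and 1.21 CPM (log2 fold change -3.93, SE 0.23, adjusted p = 1.95e-06). EPHA4, an ephrin receptor, fell from 1.92 and 2.70 to 0.191 and 0.151 CPM. NTRK3, the receptor for neurotrophin-3, had 1 edited read against about 2 CPM in wild type (ratio 57.9, interval 10.1 to 2316). Of the platelet-derived growth factor receptors, PDGFRA rose from 0.984 and 0.991 to 5.22 and 5.44 CPM and PDGFRB fell from 64.1 and 52.4 to 29.5 and 29.7 CPM. Clone 6 replicate 2 held 1.51 CPM of PDGFRA, and with it added neither receptor was called (edgeR adjusted p = 0.131 and 0.0745). G protein-coupled receptors fell in 14 of 48 cases and rose in 9. BDKRB1, a bradykinin receptor, fell from 31.2 and 26.2 to 2.29 and 2.79 CPM, PTGFR, the prostaglandin F receptor, from 8.72 and 8.59 to 0.637 and 1.66 CPM, and F2RL1, a receptor cleaved by trypsin-like proteases, from 97.1 and 83.6 to 19.8 and 19.6 CPM. ADRB1, a beta-adrenergic receptor, rose from 0.422 and 1.21 to 3.50 and 3.77 CPM (log2 fold change 2.20, and 1.59 or 3.11 without wild-type replicate 1 or 2). Its call was lost with DESeq2 (adjusted p = 0.0672) and with clone 6 replicate 2 added (0.0557). With clone 6 replicate 2 added, 4 receptor kinases fell and 1 rose, and 9 G protein-coupled receptors fell and 2 rose.

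NF-kB subunits and their feedback regulators fell in 14 of 19 cases and rose in 0 (median -1.19). TNFAIP3, a ubiquitin-editing inhibitor of the pathway, fell from 72.9 and 52.8 to 5.79 and 4.83 CPM (log2 fold change -3.53, SE 0.22, adjusted p = 2.33e-06). NFKBIA, the inhibitor that holds the factor in the cytoplasm, fell from 188 and 168 to 23.5 and 24.2 CPM, BIRC3 from 31.7 and 30.4 to 4.58 and 5.44 CPM, and ZC3H12A, a nuclease for inflammatory mRNAs, from 26.7 and 21.2 to 4.07 and 3.85 CPM. NFKBIZ was at 103 CPM in clone 6 replicate 2, above both wild-type values (72.2 and 79.5) and the edited pair (21.9 and 21.1). Adding that library left 8 members lower, and NFKBIZ was not among them (edgeR adjusted p = 0.78). Immediate early genes fell in 9 of 26 cases, with DUSP5, a phosphatase of ERK, rising from 49.6 and 68.5 to 125 and 127 CPM. The median log2 fold change of this list was -0.36, and -0.59 or -0.11 without wild-type replicate 1 or 2. The wild-type replicates differed widely for some: FOSB was at 14.8 and 81.1 CPM in wild type against 6.87 and 5.13 CPM, and its log2 fold change of -2.96 was -1.26 without wild-type replicate 2. DESeq2 (adjusted p = 0.315) and the fit with clone 6 replicate 2 (0.211) did not call it. DUSP4, with close wild-type values of 42.1 and 43.9 CPM, fell to 13.3 and 13.1 CPM.

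Antigen presentation and interferon genes were mostly lower. Of 21 MHC class I presentation genes 14 fell and 0 rose (median -0.67). HLA-B fell from 243 and 182 to 60.2 and 63.7 CPM (log2 fold change -1.76, SE 0.16, adjusted p = 3.1e-05). HLA-F fell as well (-2.92), as did the immunoproteasome gene PSMB9, from 12.05 and 13.6 to 4.39 and 3.47 CPM. HLA genes are alike in sequence, and their reads can be shared between them. In the interferon list 17 of 32 fell and 2 rose. GBP2, a guanylate-binding protein, fell from 8.53 and 7.04 to 0.191 and 0.0755 CPM, GBP1 from 35.2 and 50.1 to 10.8 and 8.15 CPM, and IFITM2, which restricts virus entry, from 26.1 and 21.6 to 7.32 and 6.79 CPM. ISG15, a ubiquitin-like modifier, rose from 20.3 and 22.6 to 33.0 and 28.7 CPM, though not with DESeq2 (adjusted p = 0.131) or clone 6 replicate 2 added (0.194). With clone 6 replicate 2 added, 9 of the interferon genes fell.

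Transcription factors of patterning changed both ways, 7 higher and 9 lower of 36. TBX3, a T-box repressor, fell from 44.9 and 49.9 to 4.46 and 4.68 CPM (log2 fold change -3.36, SE 0.17, adjusted p = 7.76e-07). IRX1 was at 2.72 and 2.81 CPM in wild type and had 0 edited reads, at least 13.2-fold lower, and PRRX1 had 1 edited read (ratio 68.2, interval 11.9 to 2721). ZIC1, a neural patterning factor, rose from 118 and 95.8 to 209 and 230 CPM and was at 87.9 CPM in clone 6 replicate 2. OTX2, a forebrain factor, rose from 6.80 and 4.73 to 14.4 and 16.1 CPM and was at 7.93 CPM there. Among glial and stem cell factors 5 of 20 fell and 2 rose. NFIA, which promotes astrocyte fate, fell from 5.06 and 3.41 to 0.509 and 0.830 CPM, and NR2F1 rose from 31.9 and 34.8 to 89.4 and 96.3 CPM. Adding clone 6 replicate 2 left 1 patterning factor higher and 7 lower, with ZIC1 (edgeR adjusted p = 0.455) and OTX2 (0.144) not called.

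Channels and transporters exchanged members. Of 20 potassium channel genes 6 fell and 5 rose. KCNJ8 and ABCC9, the pore and regulatory subunits of 1 ATP-sensitive channel, both fell: KCNJ8 from 24.1 and 27.6 to 0.827 and 0.755 CPM (log2 fold change -4.997, SE 0.25), and ABCC9 from 9.56 and 14.5 CPM to 2 reads in the pair (ratio 172, interval 47.2 to 1421). KCNN3, a calcium-activated channel, had 0 edited reads and was at least 13.9-fold lower. KCND3, a channel of transient outward currents, rose from 0.328 and 0.440 to 3.88 and 3.17 CPM. Other ion channels rose in 9 and fell in 9 of 43 cases. TRPC4, a cation channel, fell from 15.3 and 17.2 to 0.191 and 0.151 CPM, and SCN8A, a sodium channel, from 15.2 and 13.3 to 0.509 and 0.830 CPM. The LRRC8 subunits of the volume-regulated anion channel rose, LRRC8B from 1.31 and 0.991 to 13.3 and 10.9 CPM, LRRC8C from 14.8 and 15.5 to 40.4 and 40.5 CPM and LRRC8D from 46.6 and 51.02 to 91.6 and 82.5 CPM; all 3 lie on chromosome 1 in the raised stretch described further on.

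Transporters of amino acids, neurotransmitters and sugars rose in 10 and fell in 11 of 38 cases. Besides SLC6A5, SLC2A12 rose from 5.81 and 4.18 to 35.4 and 34.8 CPM and SLC1A1, a glutamate transporter, from 1.88 and 1.93 to 11.6 and 12.5 CPM. SLC16A3, the lactate exporter MCT4, fell from 50.6 and 40.9 to 6.75 and 5.74 CPM (log2 fold change -2.84, SE 0.18, adjusted p = 2.92e-06). SLC16A1, encoding the related MCT1, rose from 163 and 178 to 233 and 232 CPM, but was not called with clone 6 replicate 2 added (edgeR adjusted p = 0.052). Adding clone 6 replicate 2 left 4 transporters higher and 3 lower. Without genes of the shifted stretches described further on, 5 rose and 10 fell of 30, as a description.

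Falls outnumbered rises among cell adhesion and matrix genes. Cadherins and immunoglobulin-type adhesion molecules fell in 21 and rose in 4 of 40 cases (median -0.50). VCAM1, a ligand of leukocyte integrins, fell from 131.5 and 98.2 to 13.4 and 15.2 CPM, and JAM3, a junctional protein, from 40.9 and 44.7 to 6.94 and 5.89 CPM. Protocadherin gene PCDH7 and neurexin gene NRXN3 had 0 edited reads, with falls of at least 9.34-fold and 6.65-fold from 1.32 to 2.26 CPM. ALCAM rose from 413 and 460 to 765 and 755 CPM. Integrins changed in both directions, 6 lower and 4 higher of 16: ITGB4, a partner of the laminin-binding alpha 6 chain, rose from 42.4 and 30.3 to 111 and 110 CPM while ITGA6 fell from 105 and 131 to 58.1 and 56.2 CPM.

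Matrix protein genes fell in 33 and rose in 6 of 59 cases (median -0.66). TNC, tenascin C, fell from 216 and 224 to 0.827 and 0.679 CPM (log2 fold change -8.15, SE 0.18, adjusted p = 2.27e-09). LAMA4, a laminin chain of vessels, fell from 47.1 and 30.2 to 0.700 and 0.302 CPM and LAMA2 from 7.64 and 8.09 to 1.02 and 0.528 CPM, whereas LAMA1 rose from 2.44 and 2.26 to 15.1 and 15.3 CPM and LAMB1 from 255 and 237 to 393 and 388 CPM. Matrix proteases and their inhibitors fell in 23 of 44 cases and rose in 0 (median -0.58). Beside MMP16 and SERPINB2, ADAMTS2, which trims procollagen, had 0 edited reads and was at least 10.3-fold lower, and HTRA3 fell from 3.70 and 3.69 to 0.191 and 0.0755 CPM. MMP2, a gelatinase, fell from 79.6 and 71.8 to 26.3 and 28.7 CPM, and its inhibitor TIMP3 from 57.3 and 51.8 to 19.8 and 19.1 CPM. Cytoskeleton and contractile genes fell in 13 and rose in 8 of 42 cases, with EPB41L2, a relative of EPB41L3, at 41.6 and 39.02 against 5.60 and 7.55 CPM. TAGLN, a smooth muscle actin-binding protein, fell from 192 and 167 to 44.5 and 48.1 CPM while CNN1, another, rose from 8.86 and 7.76 to 21.9 and 17.4 CPM (8.62 CPM in clone 6 replicate 2, and edgeR adjusted p = 0.257 with it added). Adding clone 6 replicate 2 left 13 adhesion molecules, 26 matrix proteins and 17 proteases or inhibitors lower.

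**Figure D4:**
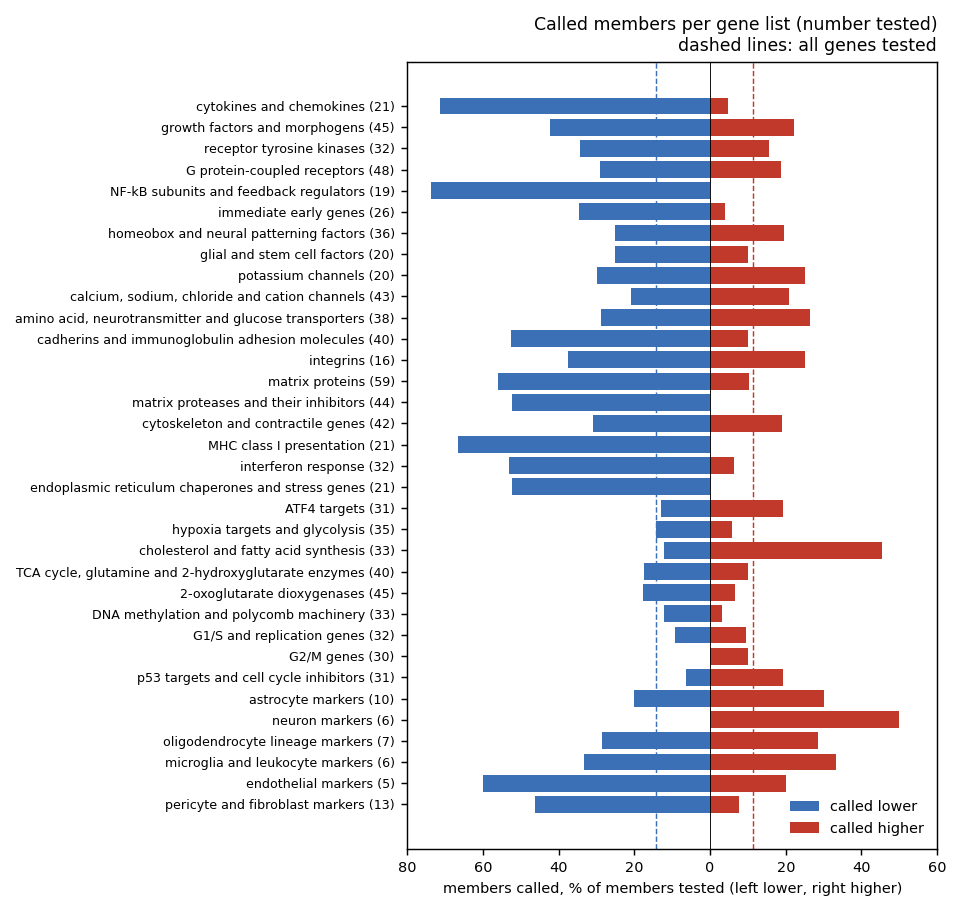
Share of tested members called lower (blue, left) and higher (red, right) in the edited pair, in percent (x), for 34 gene lists (y, number of members tested in brackets). The dashed lines mark 14.4% lower and 11.5% higher over all genes tested; cytokines, NF-kB regulators and MHC class I genes extend furthest to the left, and neuron markers (3 of 6) and cholesterol synthesis (15 of 33) furthest to the right.

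Stress genes set clone 6 replicate 2 apart from the pair. High stress genes were a reason for leaving that library out, so this contrast follows from the choice and is no result. Low levels of these genes in the pair belong to the same choice, so their test against wild type is not independent of it. Chaperones and stress genes of the endoplasmic reticulum fell in 11 of 21 cases in the edited pair and rose in 0, none by 2-fold (median -0.44). Their summed level was 5717 and 5775 CPM in wild type, 4316 and 4203 CPM in the edited pair and 12805 CPM in clone 6 replicate 2. HSPA5, the main chaperone of that compartment, was at 446 and 483 CPM in wild type and fell to 326 and 301 CPM (log2 fold change -0.54, SE 0.11, adjusted p = 0.00437). DNAJC3, HYOU1 and PDIA3 fell with log2 fold changes of -0.98, -0.87 and -0.69. With clone 6 replicate 2 added, edgeR called 0 members of the list, and DESeq2 on the pair called 9, all lower. Targets of ATF4, the factor of amino acid shortage, rose in 6 and fell in 4 of 31 cases, a called share of 32.3% against 25.8% of all genes. PSPH, of serine synthesis, rose from 45.1 and 63.7 to 123 and 125 CPM. The cystine transporter gene SLC7A11 was at 123 and 177 CPM in wild type and at 98.2 and 90.1 CPM in the pair. Its call was lost with DESeq2 (adjusted p = 0.461), and with clone 6 replicate 2 added its log2 fold change of -0.64 became 0.44 (0.625).

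Rises outnumbered falls in lipid synthesis. Of 33 cholesterol and fatty acid synthesis genes 15 rose and 4 fell (median 0.31). MSMO1, a sterol demethylase, rose from 58.3 and 62.1 to 154 and 149 CPM (log2 fold change 1.35, SE 0.11, adjusted p = 1.18e-05). HMGCS1, early in the pathway, rose from 52.6 and 50.4 to 125 and 124 CPM. In clone 6 replicate 2 HMGCS1 was at 42.0 CPM, below both wild-type values, and with that library added 2 members rose and 2 fell, HMGCS1 not among them (edgeR adjusted p = 0.385). FADS2, a fatty acid desaturase, fell from 115 and 97.7 to 30.3 and 31.8 CPM.

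The TCA cycle, glutamine and 2-hydroxyglutarate list had 4 higher and 7 lower of 40, a called share of 27.5% that is close to the 25.8% of all genes. ACO1, the cytosolic aconitase upstream of IDH1, fell from 446 and 399 to 186 and 177 CPM (log2 fold change -1.19, SE 0.11), GLUL, glutamine synthetase, from 74.3 and 70.7 to 36.7 and 34.7 CPM, and D2HGDH, which oxidises D-2-hydroxyglutarate, from 19.0 and 18.7 to 12.5 and 13.6 CPM. PRODH rose from 0.891 and 0.826 to 3.31 and 2.64 CPM. With DESeq2 the calls of PRODH (adjusted p = 0.135) and D2HGDH (0.251) were lost, and with clone 6 replicate 2 added those of ACO1 (0.0818), PRODH (0.0748) and D2HGDH (0.134). Among 45 dioxygenases of 2-oxoglutarate 8 fell and 3 rose, 24.4% and so near the share of all genes: LEPREL1, a collagen prolyl 3-hydroxylase, rose from 88.6 and 82.3 to 292 and 286 CPM, and P4HA2, a prolyl 4-hydroxylase, fell from 96.1 and 62.7 to 22.7 and 23.7 CPM. DNA methylation and polycomb genes had 4 lower and 1 higher of 33, a share of calls below that of all genes. DNMT3A fell from 50.3 and 44.6 to 23.4 and 22.9 CPM and DNMT3B rose from 28.8 and 28.1 to 40.5 and 42.3 CPM. The rise of DNMT3B was not called with DESeq2 (adjusted p = 0.0703) or with clone 6 replicate 2 added (0.074). Hypoxia and glycolysis genes had 5 lower and 2 higher of 35, a called share of 20% that is below the 25.8% of all genes. The log2 fold changes were -1.08 for BHLHE40 and -0.86 for EGLN1, the oxygen sensor of HIF. The direction of this list turned with the wild-type library used, with 17 higher and 6 lower without replicate 1 (median 0.19) and 3 higher and 23 lower without replicate 2 (median -0.29). BHLHE40 lost its call with clone 6 replicate 2 added (edgeR adjusted p = 0.0581).

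Counts of changed proliferation genes depended on the fit. Of 32 G1/S and replication genes 3 rose and 3 fell, and of 30 G2/M genes 3 rose and 0 fell. Their called shares of 18.8% and 10% were below the 25.8% of all genes. With the pair kept as 2 samples, 10 rose and 6 fell in the former list and 5 rose and 9 fell in the latter. That fit called 41.4% of all genes, against 25.8% in the main comparison, so calls were added outside these lists as well. Both lists gained calls by a larger factor than all genes, a difference that was not tested. The median log2 fold change of the G2/M genes was -0.01 without wild-type replicate 1 and 0.003 without replicate 2. CCND2 fell from 46.8 and 47.8 to 26.7 and 26.6 CPM, and KIF2C, a mitotic kinesin, rose from 152 and 143 to 213 and 216 CPM. Cell cycle inhibitors and p53 targets rose in 6 and fell in 2 of 31 cases, the same called share as all genes (25.8%): CDKN1B, encoding p27, rose from 64.5 and 58.6 to 150 and 145 CPM (log2 fold change 1.28, SE 0.11, adjusted p = 1.63e-05), CDKN2C from 83.7 and 65.9 to 140 and 149 CPM, and the death receptor gene FAS fell from 5.02 and 3.63 to 1.08 and 0.755 CPM. With clone 6 replicate 2 added, CCND2 (edgeR adjusted p = 0.1) and CDKN2C (0.411) were not called.

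Marker lists of brain and vessel cell types held members that rose and members that fell, apart from the neuron list, where 0 fell. In bulk RNA, fewer cells of a type and less RNA per cell cannot be told apart. Astrocyte markers had 10 tested members, 3 higher and 2 lower, with a median log2 fold change of -0.11. NFIA was among those that fell (-2.67). GJA1, the astrocyte gap junction protein, rose from 170 and 156 to 358 and 347 CPM and CLU, clusterin, from 34.4 and 38.0 to 129 and 121.02 CPM. Of 6 tested neuron markers SLC6A5, INA and GAD1 rose, while STMN2, DCX, NEFL and NEFM had 0 reads in the 4 libraries. Of the microglia and leukocyte list SLAMF7 and CPA3 rose and HCLS1 and LCP1 fell, LCP1 from 91.6 and 93.9 to 2.74 and 3.397 CPM, while CX3CR1 and TYROBP had 0 reads and PTPRC at most 0.0637 CPM. In the pericyte and fibroblast list 6 of 13 fell and RGS5 rose. PDPN fell from 31.4 and 30.0 to 2.48 and 2.57 CPM and FAP from 28.9 and 30.4 to 3.95 and 3.93 CPM. Of 7 tested markers of the oligodendrocyte lineage 2 rose and 2 fell. ENPP2 fell from 18.6 and 22.7 to 0.382 and 0.830 CPM, with OLIG1, OLIG2, MOG and MAG at 0 reads. Of 5 endothelial markers 3 fell and 1 rose, with EMCN and PLVAP at 0 reads.

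The share of changed genes differed between chromosomes, as a description with no test. Chromosome 13 had 116 lower and 6 higher genes of 209 tested (median log2 fold change -0.49), chromosome 11 276 lower and 35 higher of 644 (-0.39), and chromosome 15 109 lower and 15 higher of 403. Chromosome 8 leaned the other way, with 96 higher and 39 lower of 393. In gene order, the running median over 51 neighbouring genes ranged from -0.74 to 0.72 for the edited pair over wild type, from -0.08 to 0.20 between the wild-type replicates and from -0.14 to 0.08 between clone 2 and clone 6 replicate 1. The longest raised stretch, 191 genes of chromosome 1 that end at FAM46C, had a median of 0.66 with 128 genes higher and 10 lower, and its median was 0.65 in clone 6 replicate 2 over wild type. Stretches of 137 and 270 genes on chromosome 11 had medians of -0.48 and -0.53 with 77 and 155 genes lower, and 177 genes of chromosome 13 from RNF6 to COL4A1 had -0.49 with 99 lower. Shorter lowered stretches lay on chromosomes 2 (BZW1 to CCNYL1, -0.75), 4 (DDX60L to WWC2, -0.72), 7 (ZNF107 to STAG3L1, -0.55) and 15 (-0.59). The DNA copy number of these cells was not analysed here, and its part in these changes was not tested.

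**Figure D5:**
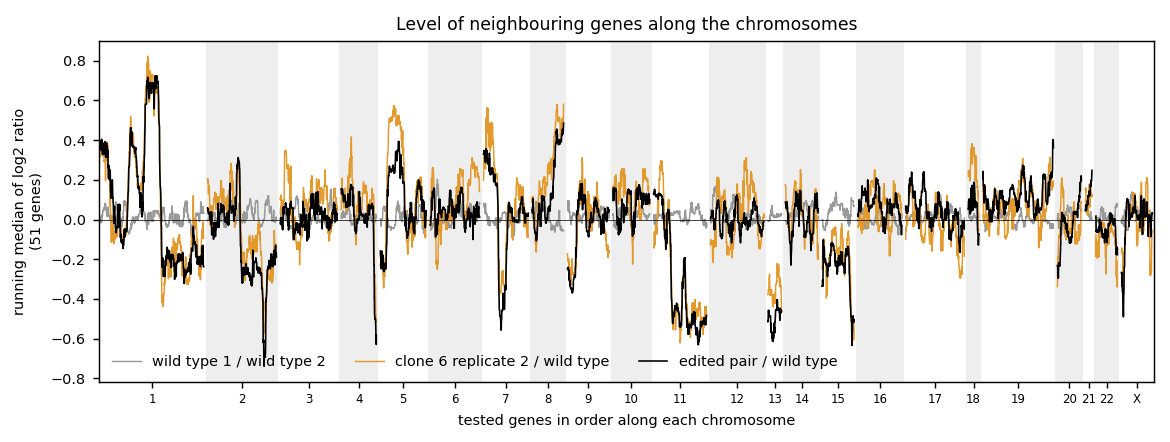
Running median over 51 neighbouring genes of the log2 ratio (y), with tested genes in order along chromosomes 1 to 22 and X (x, shaded in turn). The black line (edited pair over wild type) leaves 0 in long stretches, up to 0.72 on chromosome 1 and down to -0.74 on chromosome 2, the orange line (clone 6 replicate 2 over wild type) runs near it in the same places, and the grey line (wild type 1 over wild type 2) stays between -0.08 and 0.20.

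Genes where that running median was past 0.2 in either direction made up 3520 of the 13965 tested; 42.8% of them were called, against 20.1% of the other 10445 (9.89% higher and 10.2% lower). The same log2 fold changes define these stretches and give the calls, so a higher share inside them follows from the choice and is no result. The strongest changes were not confined to those stretches, which held 98 of the 321 falls and 35 of the 143 rises of at least 4-fold. Counts outside the stretches are likewise a description. Of the 21 endoplasmic reticulum chaperones and stress genes, 16 lay outside, with 7 lower and 0 higher. Without their genes, 11 of 13 cytokines, 12 of 16 NF-kB genes, 13 of 18 MHC class I genes, 22 of 41 matrix proteins and 18 of 33 proteases or inhibitors were lower. The interferon list then had 9 lower and 0 higher of 19, cholesterol synthesis 10 higher and 1 lower of 21, growth factors 9 higher and 10 lower of 32, adhesion molecules 1 higher and 14 lower of 25, and potassium channels 1 higher and 6 lower of 14. MACF1, ENO1 and RPL5, among the 8 largest rises in CPM, lie on chromosome 1.

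CG counts in promoters were set beside the size of change, as a description with no test. A RefSeq promoter was found for 9301 of 11211 protein-coding genes tested (83.0%). The median number of CG on the shown strand was 27 over all of them and 16 in the 119 genes that fell at least 8-fold by fitted value. The share with 5 CG or fewer was 5.90% and 22.7%. The 21 genes that rose at least 8-fold had a median of 23 CG, with 28.6% at 5 or fewer. Genes that changed under 2-fold had medians of 27 (higher) and 28 (lower). Wild-type levels differed as well, with a median of 33.5 CPM over all genes and 6.85 CPM in those that fell at least 8-fold, and the part of the level in the difference in CG was not tested.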

How the data were processed

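Libraries of SVG-10B1 RNA were run on Illumina HiSeq, per the labels' protocols. Trimmomatic, STAR, HTSeq and hg19 (GRCh37) are listed in the submitters' processing notes with no version or role. Annotation and strand setting, not given in the sources used here, remain unknown. The authors deposited whole-number counts of reads per gene, without normalization. Of 63677 listed genes, 5772 had empty values and were treated as not measured. The fit used edgeR 4.0.16 in R 4.3.3: TMM scaling, at least 1 CPM in 2 of 4 libraries, edited counts summed into 1 sample, quasi-likelihood F test with 1 residual degree of freedom beside 9.44 from all genes, two-sided, Benjamini-Hochberg below 0.05, prior count 0.125. SE is the log2 fold change over the square root of F. Folds against 0 reads use 3 reads per library. Gene order came from GENCODE 29 for 13633 of the tested genes, joined by identifier.

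The members, gene lists and rules were chosen with earlier results of these data known. Named genes are IDH1, the 12 largest rises and falls (average log2 CPM of at least 2), the 8 largest by CPM, genes with 0 reads in 1 group and at least 5 CPM in the other, and up to 4 called members per list; further list members were chosen after their values were seen. Some genes that meet these rules are not reported here. Alternatives were DESeq2 1.42.0, other scalings, filters and libraries left out or added, and, chosen after seeing the data, list counts under each fit, gene-order medians and counts without shifted stretches. The fit was tested on simulated data.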

Additional observations from a re-analysis of the deposited data

Results flagged for a closer look

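One signal lay outside the comparison, in the edited library that was left out. High stress genes were a reason for leaving it out, so the signal is a description and no separate result. In clone 6 replicate 2 the 31 tested ATF4 targets had a median log2 ratio of 1.455 to the wild-type mean, while in the edited pair 6 of them rose and 4 fell.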

How the results depend on the processing

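The pair kept as 2 samples gave 5775 calls (2739 higher, 3036 lower), DESeq2 1911 (739 and 1172), clone 6 replicate 2 added 1440 (583 and 857, all also called in the main comparison), and a minimum of 2-fold 1309 (567 and 742). Leaving out 1 library gave 3392 to 7227 calls, 1490 to 3507 higher and 1896 to 3720 lower. The high ends come from leaving out wild-type replicate 1 (6975) or 2 (7227), where the spread is that of the edited pair alone. Other scalings and filters, and leaving out ribosomal RNA genes, stayed within 1.5 times the 3603 calls. Of 154 named genes, 115 kept direction and call in all alternatives. The call was lost by 16 with DESeq2. With clone 6 replicate 2 added, 31 lost it with the same direction, and 4 more lost it with log2 fold changes above 0: DNAJC3 (0.088, edgeR adjusted p = 0.927), HYOU1 (0.0275, 0.973), SDF2L1 (1.27, 0.345) and SLC7A11 (0.44, 0.625). No paired analysis was possible because both edited libraries carry replicate number 1. With 2 wild-type libraries the spread rests on 1 difference per gene and on the trend over genes.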
